A study of Mus musculus with 21 samples.

Results

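Fc receptors bind the constant part of antibodies, and 6 of their genes were followed here in inflammatory monocytes (IMs): the activating IgG receptor genes Fcgr1, Fcgr3 and Fcgr4, the inhibitory IgG receptor gene Fcgr2b, Fcer1g, which encodes the common FcR gamma chain, and Fcgrt, which encodes the neonatal Fc receptor FcRn. They were taken from the raw count table by gene symbol alone, as 6 of its 23420 genes, and all 6 were found and passed the filter on low counts in every comparison. The study asked how gene expression in tumor inflammatory monocytes (TIMs) of mouse models of lung squamous carcinoma differs from that of bone marrow (BM) IMs of the same strain. Adult FVB mice carried KAL-LN2-E1 (LN2E1) cells, placed orthotopically in the lung at 500000 cells per mouse, and TIMs came from their primary lung tumors (n = 5) and lymph node metastases (n = 5). DBA2 mice received 300000 LN4K1 cells intravenously, and TIMs came from their lung tumors (n = 5). BM IMs came from naive, healthy FVB mice (n = 3) and DBA2 mice (n = 3). Both lines are lung squamous carcinoma lines obtained by passage in mice, no group carries an engineered allele or a drug treatment in the labels, and the sex of the animal behind each library is not given in the labels. Cell line, strain, route and number of cells injected changed together between the models, as did tissue for the lymph node TIMs. Tumor and tissue changed together between TIMs and BM IMs, so none of these can be told apart. The labels number the samples of a group and the methods call them technical replicates, so p-values measure the spread between these samples, which may be technical.

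The IMs were enriched with a monocyte isolation kit and sorted as live CD45+ CD11b+ Ly6C-high Ly6G- SiglecF- cells, and each library is the bulk RNA of such a sort, in which fewer cells of a type and less RNA per cell cannot be told apart. Levels are given as counts per 1000000 (CPM) scaled with TMM factors, with the SD between libraries, and a change was called at an adjusted p under 0.05 in edgeR's quasi-likelihood test over all genes. Total counts per library lay between 80772922 and 101043568, and the lowest count of any of the 6 genes in a library was 510. This was Fcgr4 in FVB BM IMs, with counts of 510, 550 and 542, where counting error was not small beside the spread between libraries. Monocyte genes of the sort were present in all 21 libraries: Ly6c2 lay between 2455 and 3618 CPM in FVB BM IMs, between 2525 and 2724 CPM in DBA2 BM IMs and between 978 and 1676 CPM in TIMs. Ccr2, the chemokine receptor of inflammatory monocytes, lay between 708 and 1376 CPM in BM IMs and between 742 and 2890 CPM in TIMs. Genes of other cells were not absent. The summed level of 5 eosinophil genes lay between 434 and 1148 CPM in BM IMs and at or below 68.9 CPM in TIMs, that of 8 neutrophil genes lay between 3086 and 3872 CPM in FVB BM IMs and between 284 and 1173 CPM in LN2E1 TIMs, but between 959 and 1436 CPM in DBA2 BM IMs and between 909 and 1739 CPM in LN4K1 lung TIMs, which overlap, and that of 8 genes of nonclassical monocytes lay between 395 and 1079 CPM in BM IMs and between 2312 and 4811 CPM in TIMs. The summed level of 7 B cell genes, led by Cd79b, lay between 20.6 and 41.1 CPM in BM IMs and between 10.7 and 35.7 CPM in TIMs. Only 1 of them, Pax5, had at most 1 count in every library.

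As background, FcgammaRI (Fcgr1), FcgammaRIII (Fcgr3) and FcgammaRIV (Fcgr4) pair with the FcR gamma chain, whose ITAM recruits Src family kinases and Syk and starts phagocytosis and oxidative burst when antibody-coated targets are bound. FcgammaRIIb carries an ITIM in its own tail, which recruits the phosphatase SHIP-1 and restrains activation, so that the balance of activating receptors to FcgammaRIIb is commonly used to describe how readily a myeloid cell answers immune complexes. Interferon gamma is a known inducer of Fcgr1 and Fcgr4, and FcgammaRIV is the receptor that mouse nonclassical (Ly6C-low) monocytes are known for. FcRn works inside the cell, where it binds IgG and albumin in acidic endosomes together with beta-2 microglobulin and returns them to the surface.

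The genes lie in 3 places of the mm10 (GRCm38) genome. Fcgr2b (chr1:170958617-170976547, minus strand), Fcgr4 (chr1:171018920-171029761, plus strand), Fcgr3 (chr1:171051174-171064935, minus strand) and Fcer1g (chr1:171229572-171234365, minus strand) lie on chromosome 1 within 276 kb, Fcgr1 lies on chromosome 3 (chr3:96282909-96293969, minus strand) and Fcgrt on chromosome 7 (chr7:45092990-45103851, minus strand). Fcgr3 and Fcgr2b share coding sequence: of the stretches of 50 bases in the transcript Fcgr3-201, 12.8% also occur in Fcgr2b transcripts, and of those in Fcgr2b-201, 4.75% occur in Fcgr3, so that reads there could be assigned to either gene or dropped. No other pair of the 6 shared such a stretch. An exon of the antisense gene Gm38204 overlaps Fcgr2b exons over 155 bases on the opposite strand, and reads there cannot be separated in libraries without strand.

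The promoters of Fcgr1 and Fcgr4 are shown because these were the 2 genes with the largest rise in TIMs. Sequences from 250 bases before to 50 bases after the start were taken from RefSeq (GRCm38.p6), where all 6 genes matched, and 3 motifs were searched on both strands: the gamma-activated site TTCNNNGAA, the interferon response element core (GAAA, any 2 bases, GAAA) and the PU.1 site GAGGAAGT. Capitals mark the matches in the promoters of Fcgr1 (chr3:96293920-96294219, minus strand) and Fcgr4 (chr1:171018676-171018975, plus strand).
Fcgr1: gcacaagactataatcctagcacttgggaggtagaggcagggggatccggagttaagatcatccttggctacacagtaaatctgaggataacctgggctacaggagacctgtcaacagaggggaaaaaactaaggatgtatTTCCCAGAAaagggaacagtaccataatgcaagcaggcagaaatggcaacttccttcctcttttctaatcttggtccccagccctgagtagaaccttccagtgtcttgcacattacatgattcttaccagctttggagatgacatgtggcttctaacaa
Fcgr4: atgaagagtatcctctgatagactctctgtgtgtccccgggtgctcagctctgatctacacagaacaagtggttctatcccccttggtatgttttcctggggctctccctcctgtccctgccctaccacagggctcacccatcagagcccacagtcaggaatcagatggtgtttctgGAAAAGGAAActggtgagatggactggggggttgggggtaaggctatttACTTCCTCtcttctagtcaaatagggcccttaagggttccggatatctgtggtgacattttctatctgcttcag
The Fcgr1 match lay at -109 to -101 from the start, and 8.30% of 32851 promoters of the same length hold the gamma-activated site. In Fcgr4 the interferon response element core lay at -73 to -64 (3.44% of promoters hold it) and the PU.1 site, on the reverse strand, at -24 to -17 (3.20% of promoters). None of the 3 motifs was found in these windows of Fcgr2b, Fcgr3, Fcer1g and Fcgrt. These are matches of letters in a short window and do not show that a factor binds there.

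The activating receptor genes rose in all 3 comparisons of TIMs with BM IMs. Fcgr4 had the largest fold change in each, and Fcgr1 rose 22.3-fold and 29.5-fold in the LN2E1 groups, where Fcgr3 rose 2.15-fold and 2.74-fold, and 5.08-fold in LN4K1 lungs, where Fcgr3 rose 3.67-fold. Fcgr2b also rose in all 3, by 2.04-fold to 3.51-fold, Fcer1g rose in 2 of the 3, and Fcgrt fell in both LN2E1 groups and rose in LN4K1 lung TIMs. In LN2E1 primary tumor TIMs 5 of the 6 genes were called (4 higher, 1 lower), where 61.9% of all 14569 genes tested were called, 33.3% higher and 28.6% lower. In lymph node TIMs all 6 were called (5 higher, 1 lower) against 37.4% of 13273 genes, 20.2% higher and 17.2% lower, and in LN4K1 lung TIMs all 6 were called, all higher, against 24.9% of 13624 genes, 13.9% higher. The receptor groups did not overlap for 5, 5 and 6 of the 6 genes, where 58.0%, 42.9% and 34.5% of all genes did not. Their median log2 fold changes were 1.16, 1.24 and 1.84, beside medians over all genes tested of 0.080, -0.041 and 0.029. At the stricter thresholds of the study (a change of more than 1 on the log2 scale in either direction, with an adjusted p below 0.0001), applied to the edgeR results, the DEGs were Fcgr1, Fcgr3 and Fcgr4 in primary tumors, Fcgr1 and Fcgr4 in lymph nodes, and Fcgr1, Fcgr2b, Fcgr3 and Fcgr4 in LN4K1 lungs, beside 12.9%, 5.71% and 2.97% of all genes. The study used shrunken DESeq2 fold changes and then kept the genes shared by its comparisons, a step not taken here. With the method of shrunken DESeq2 fold changes alone, 4 genes passed these thresholds in each comparison, Fcgr1, Fcgr2b, Fcgr3 and Fcgr4. Fcgr2b was thus added in primary tumors (1.25, adjusted p = 3.79e-12) and Fcgr2b (1.02, adjusted p = 7.65e-06) and Fcgr3 (1.44, adjusted p = 4.03e-12) in lymph nodes. This method also passed more of all genes, 4004, 2402 and 1565 in the 3 comparisons, where edgeR passed 1879, 758 and 405. The primary tumor and lymph node comparisons share the FVB BM IM libraries.

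**Figure D1:**
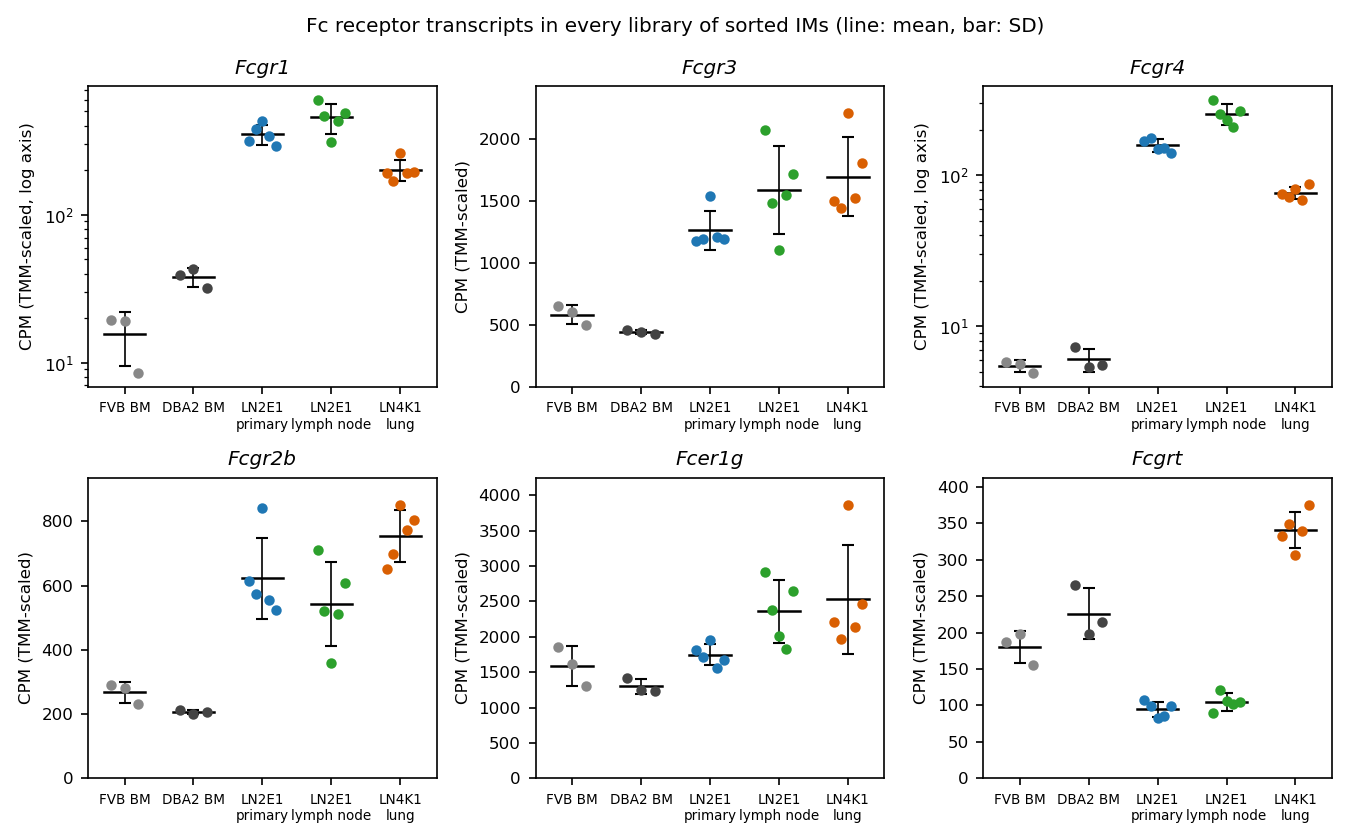
TMM-scaled CPM of each gene (y axis, logarithmic for Fcgr1 and Fcgr4) in the 21 libraries, grouped by source on the x axis, with the mean as a line and the SD as a bar. Fcgr4 lies between 4.88 and 7.23 CPM in BM IMs and between 68.6 and 316 CPM in TIMs, and Fcgrt is below BM IMs in LN2E1 TIMs and above them in LN4K1 lung TIMs.

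Fcgr4 encodes an activating receptor for IgG2a and IgG2b and had the largest change of the 6. In FVB BM IMs its level was 5.82, 5.61 and 4.88 CPM, and in DBA2 BM IMs it was 7.23, 5.36 and 5.53 CPM. Primary tumor TIMs had 168, 178, 149, 152 and 140.4 CPM, and lymph node TIMs had 316, 253, 230.3, 209 and 266 CPM. All lymph node libraries lay above all primary tumor libraries, and no TIM library came near a BM IM library. LN4K1 lung TIMs had 75.2, 71.9, 80.5, 68.6 and 87.3 CPM, below every LN2E1 library. Against FVB BM IMs Fcgr4 was 28.7-fold higher in primary tumor TIMs (log2 fold change 4.84 ± 0.13, SE, adjusted p = 4.53e-08) and 47.2-fold higher in lymph node TIMs (5.56 ± 0.20, adjusted p = 2.24e-07), and against DBA2 BM IMs it was 12.2-fold higher in LN4K1 lung TIMs (3.60 ± 0.16, adjusted p = 9.75e-07). The 2 BM IM groups overlapped and did not pass the test against each other (0.18 ± 0.22, adjusted p = 0.595). Over all genes, 33.3% rose in primary tumors, 20.2% in lymph nodes and 13.9% in LN4K1 lungs. Those that fell were 28.6% in primary tumors, 17.2% in lymph nodes and 1497 of 13624 in LN4K1 lungs. Of 8 genes known for nonclassical monocytes, 6 rose and 1 fell in primary tumors. In lymph nodes 7 of the 8 rose, and in LN4K1 lungs 6 rose and 1 fell. Among them, Treml4 lay between 17.5 and 44.0 CPM in BM IMs, between 259 and 701 CPM in LN2E1 TIMs and between 113 and 165 CPM in LN4K1 lung TIMs, while Nr4a1, the leading gene of the list and also an immediate early gene, lay between 89.8 and 539 CPM in BM IMs and between 823 and 3069 CPM in TIMs. Cx3cr1 lay between 81.4 and 237 CPM in BM IMs and between 50.8 and 279.7 CPM in TIMs. The part of such cells in the Fcgr4 result was not tested.

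Fcgr1 encodes FcgammaRI, the high-affinity IgG receptor. Its level was 19.5, 19.1 and 8.48 CPM in FVB BM IMs and 39.3, 42.9 and 32.0 CPM in DBA2 BM IMs, and these groups did not overlap. Primary tumor TIMs had 317, 379.6, 428, 339.7 and 290.3 CPM and lymph node TIMs had 599.9, 467, 309, 427 and 491 CPM, with overlap. LN4K1 lung TIMs had 192, 170.3, 260.4, 193 and 195 CPM and lay below all LN2E1 TIMs, with the third library above its group. Fcgr1 was 22.3-fold higher in primary tumor TIMs (4.48 ± 0.31, adjusted p = 2.52e-06) and 29.5-fold higher in lymph node TIMs (4.88 ± 0.35, adjusted p = 5.46e-06) than in FVB BM IMs. In LN4K1 lung TIMs it was 5.08-fold higher than in DBA2 BM IMs (2.34 ± 0.17, adjusted p = 1.45e-05). Over all genes, 33.3%, 20.2% and 13.9% were called higher in the 3 comparisons. Of 8 macrophage genes 4, 3 and 2 rose and 0, 0 and 1 fell, with a summed level between 866 and 2056 CPM in BM IMs and between 2306 and 5524 CPM in TIMs, most of it Apoe. Mertk, a receptor of mature macrophages, stayed at or below 15.9 CPM in every library, while the sum of the 8 genes was higher in TIMs. It is 1 of the 8 and was named after its values were seen. The part of macrophages in the Fcgr1 result was not tested.

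Fcgr3 encodes the low-affinity activating receptor FcgammaRIII and had the highest level of the 4 Fcgr genes in every group. FVB BM IMs had 649.6, 603 and 498 CPM and DBA2 BM IMs had 457, 439 and 431 CPM. Primary tumor TIMs had 1182, 1193, 1542, 1211 and 1196 CPM, lymph node TIMs had 2077, 1487, 1108, 1549 and 1724 CPM, and LN4K1 lung TIMs had 1499, 1444, 2210.0, 1525 and 1807 CPM. The TIM groups overlapped each other and lay above all BM IMs. The rise was 2.15-fold in primary tumors (1.10 ± 0.13, adjusted p = 5.95e-05), 2.74-fold in lymph nodes (1.45 ± 0.20, adjusted p = 0.000305) and 3.67-fold in LN4K1 lungs (1.88 ± 0.16, adjusted p = 3.35e-05). Neutrophils also express Fcgr3, and of the 8 neutrophil genes 2, 1 and 1 rose and 4, 5 and 4 fell in the 3 comparisons. Over all genes, 33.3%, 20.2% and 13.9% rose, and 28.6% in primary tumors, 17.2% in lymph nodes and 1497 of 13624 in LN4K1 lungs fell. The part of neutrophils in the Fcgr3 result was not tested.

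Fcgr2b encodes the inhibitory receptor. FVB BM IMs had 290.0, 281 and 231 CPM and DBA2 BM IMs had 211, 200.1 and 206 CPM. Primary tumor TIMs had 616, 575, 842, 556 and 525 CPM, lymph node TIMs had 711, 519.7, 358, 512 and 608 CPM, and LN4K1 lung TIMs had 651, 699, 852, 772 and 804 CPM. As for Fcgr3, the 3 TIM groups overlapped in the order of their means and lay above BM IMs. Fcgr2b was 2.31-fold higher in primary tumor TIMs (1.21 ± 0.17, adjusted p = 0.000179), 2.04-fold higher in lymph node TIMs (1.03 ± 0.20, adjusted p = 0.00318) and 3.51-fold higher in LN4K1 lung TIMs (1.81 ± 0.12, adjusted p = 6.97e-06). B cells carry Fcgr2b as their Fcgamma receptor, and the summed level of 7 of their genes, led by Cd79b, lay between 20.6 and 41.1 CPM in BM IMs and between 10.7 and 35.7 CPM in TIMs. Of the 5, 2 and 2 B cell genes that could be tested in the 3 comparisons, 1, 0 and 0 rose and 1, 1 and 0 fell, and their part in the Fcgr2b result was not tested. Over all genes, 33.3%, 20.2% and 13.9% rose, and 28.6% in primary tumors, 17.2% in lymph nodes and 1497 of 13624 in LN4K1 lungs fell.

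Fcer1g encodes the gamma chain that the activating receptors need for surface expression and signaling, and it had the highest level of the 6 genes. FVB BM IMs had 1859, 1611 and 1301 CPM and DBA2 BM IMs had 1423, 1243 and 1233 CPM. Primary tumor TIMs had 1818, 1716, 1958, 1564 and 1677 CPM, lymph node TIMs had 2922, 2381, 2017, 1834 and 2649.7 CPM, and LN4K1 lung TIMs had 2204, 1973, 3865, 2145 and 2459 CPM. Primary tumor TIMs lay within the range of their BM IMs but for the highest library. The change did not pass the test in primary tumors (0.12 ± 0.12, adjusted p = 0.400), and the log2 fold change was 0.58 ± 0.18 in lymph nodes (adjusted p = 0.0283) and 0.90 ± 0.22 in LN4K1 lungs (1.86-fold, adjusted p = 0.0145). The call in lymph nodes did not hold without lymph node replicate 2 (adjusted p = 0.0543) or 5 (adjusted p = 0.0592), nor without FVB replicate 2 (adjusted p = 0.0903) or 3 (adjusted p = 0.109), and the call in LN4K1 lungs did not hold without DBA2 replicate 2 (adjusted p = 0.0652) or 3 (adjusted p = 0.0668). Mast cells and basophils also express Fcer1g, and the summed level of 6 of their genes lay between 93.4 and 112 CPM in FVB BM IMs, between 10.3 and 18.7 CPM in DBA2 BM IMs, between 81.5 and 263 CPM in LN2E1 TIMs and between 5.84 and 15.8 CPM in LN4K1 lung TIMs. Their part and that of the eosinophil genes in the Fcer1g result were not tested.

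Fcgrt, the FcRn gene, was the only one of the 6 to be lower in a TIM group. FVB BM IMs had 187, 198 and 155 CPM and DBA2 BM IMs had 265, 198 and 214 CPM. Primary tumor TIMs had 108, 99.2, 83.2, 84.9 and 99.4 CPM and lymph node TIMs had 89.0, 122, 106, 102 and 105 CPM, all below every BM IM library. LN4K1 lung TIMs had 332, 349, 307, 339 and 375 CPM, all above every BM IM library. Fcgrt fell in primary tumor TIMs (-0.94 ± 0.11, adjusted p = 7.28e-05) and in lymph node TIMs (-0.77 ± 0.13, adjusted p = 0.00129), and rose in LN4K1 lung TIMs (0.53 ± 0.13, adjusted p = 0.0138). The rise did not hold without DBA2 replicate 2 (0.45, adjusted p = 0.0792) or 3 (0.50, adjusted p = 0.0729), nor with total counts in place of TMM factors (0.31, adjusted p = 0.103). FcRn is also expressed by epithelium and endothelium. The summed level of 7 epithelial genes was at or below 3.64 CPM in BM IMs, between 180.3 and 748 CPM in primary tumor TIMs, between 9.78 and 139.8 CPM in lymph node TIMs and between 7.64 and 111 CPM in LN4K1 lung TIMs. The summed level of 6 endothelial genes lay between 6.38 and 9.12 CPM in FVB BM IMs and between 52.8 and 109.8 CPM in LN2E1 TIMs, and between 14.7 and 20.4 CPM in DBA2 BM IMs and between 8.26 and 16.7 CPM in LN4K1 lung TIMs. The part of either cell type in the Fcgrt result was not tested.

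**Figure D2:**
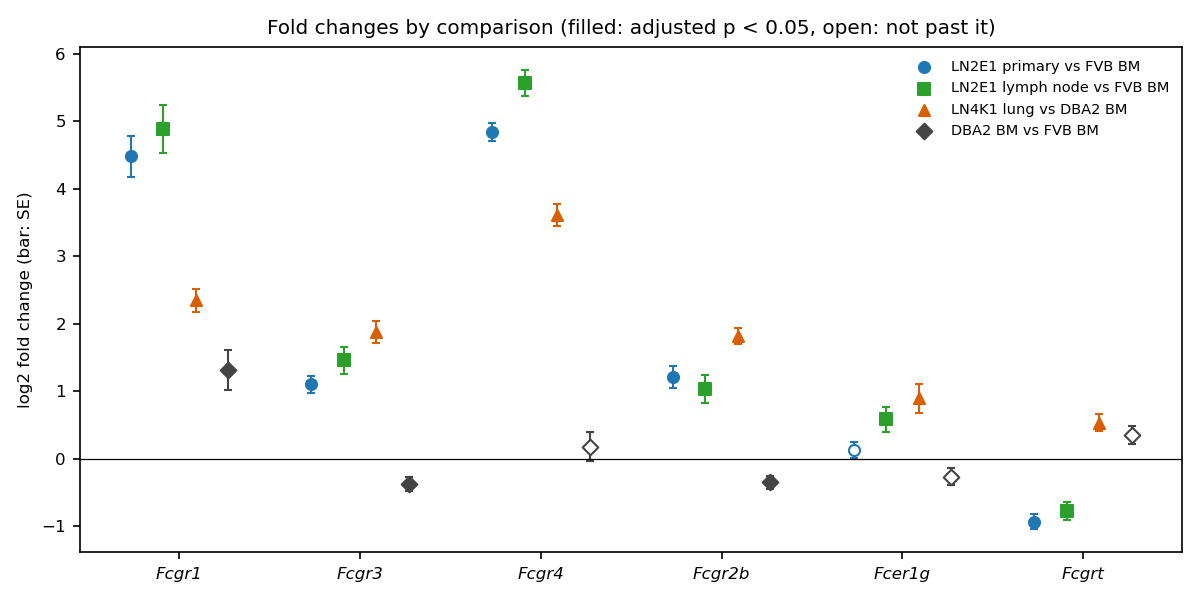
Log2 fold change (y axis) with its SE for each gene (x axis) in 4 comparisons, filled where the adjusted p was under 0.05 and open where it was not. Fcgr1 and Fcgr4 stand at 4.48 to 5.56 in the LN2E1 comparisons and at 2.34 and 3.60 in LN4K1 lung TIMs, and Fcgrt is below 0 in LN2E1 and above it in LN4K1.

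In the exact two-sided permutation test of log2 CPM, each gene other than Fcer1g reached p = 0.0179, the smallest that 5 libraries against 3 allow, in all 3 comparisons of TIMs with BM IMs. Fcer1g reached it in LN4K1 lungs, and had an exact p of 0.321 in primary tumors and 0.0536 in lymph nodes. On CPM without TMM factors the exact p was 0.0357 for Fcgr2b in lymph nodes, 0.0536 for Fcgrt in LN4K1 lungs, and 0.696 and 0.161 for Fcer1g in primary tumors and lymph nodes, and the other tests kept the smallest p.

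The choice of scaling bears on the small changes. TMM factors lay between 1.06 and 1.18 in BM IMs and between 0.883 and 1.01 in TIMs. With total counts and no TMM factors, chosen as an alternative after the data were seen, the median log2 fold change over all genes moved by -0.17 in primary tumors, -0.29 in lymph nodes and -0.22 in LN4K1 lungs, and the split of all calls into higher and lower moved from 54.0% to 36.0% higher in lymph nodes and from 55.8% to 35.6% in LN4K1 lungs. Fcgr1, Fcgr2b, Fcgr3 and Fcgr4 were still called higher in all 3 comparisons under this scaling, and Fcgrt was still called lower in LN2E1 TIMs. Fcer1g was not called in lymph nodes (0.30, adjusted p = 0.163), and its value in primary tumors turned to -0.047, not called under either scaling.

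The change in LN2E1 primary tumors differed from that in LN4K1 lungs for all 6 genes, where 26.5% of 15182 genes were called in this interaction test, 13.2% higher and 13.3% lower, and 0.369% passed the thresholds of the study, Fcgrt among them. Fcgr1 rose more in the primary tumors, with a difference in log2 fold change of 2.15 ± 0.31 (SE, adjusted p = 0.000408), and so did Fcgr4 (1.26 ± 0.17, adjusted p = 0.000219). Fcgrt had the largest difference in the other direction (-1.45 ± 0.17, adjusted p = 7.78e-05), followed by Fcgr3 (-0.75 ± 0.19, adjusted p = 0.00972), Fcer1g (-0.75 ± 0.25, adjusted p = 0.0350) and Fcgr2b (-0.59 ± 0.20, adjusted p = 0.0368). The calls of Fcgr1, Fcgr3, Fcgr4 and Fcgrt held in each of 16 fits without 1 library. That of Fcgr2b was lost in 10 of them (adjusted p up to 0.0915, without FVB replicate 2) and that of Fcer1g in 6 (adjusted p up to 0.0909, without FVB replicate 1). For Fcgr1 the baselines differed as well: BM IMs of DBA2 mice had a 2.48-fold higher level than those of FVB mice (1.31 ± 0.29, adjusted p = 0.0171), and without DBA2 replicate 2 this comparison had an adjusted p of 0.0593. Between the strains, Fcgr2b (-0.35 ± 0.10, adjusted p = 0.0396) and Fcgr3 (-0.37 ± 0.10, adjusted p = 0.0378) were lower in DBA2 BM IMs, so that 3 of the 6 genes were called (1 higher, 2 lower) where 21.1% of 12905 genes were (11.5% higher, 9.57% lower). The strains did not overlap for 4 of the 6 genes and for 42.1% of all genes, and 0.403% of all genes but none of the 6 passed the thresholds of the study. Both of these calls held without FVB replicate 3 and were lost without any 1 of the other 5 libraries, with adjusted p between 0.0792 and 0.150. An exact test of 3 libraries against 3 cannot go below 0.1.

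Lymph node TIMs differed from primary tumor TIMs in Fcgr4 (0.71 ± 0.12, adjusted p = 0.00362) and Fcer1g (0.45 ± 0.13, adjusted p = 0.0423), so that 2 of the 6 were called, both higher, where 11.7% of 13488 genes were (6.15% higher). The groups did not overlap for 1 of the 6 and for 14.4% of all genes, and 0.0297% of all genes but none of the 6 passed the thresholds of the study. Fcgr4 was 1.63-fold higher, with an exact permutation p of 0.00794, the smallest that 5 libraries against 5 allow, and its call held in all 10 fits without 1 library. The Fcer1g call held in only 3 of those 10 (without lymph node replicate 3 or 4 or primary tumor replicate 3), with adjusted p up to 0.128 without primary tumor replicate 4, and it was lost with total counts (0.34, adjusted p = 0.0838). That scaling moved the median over all genes by -0.10 and the split of all calls from 52.5% to 32.2% higher. Fcgr1 (0.40 ± 0.16, adjusted p = 0.148), Fcgr3 (0.34 ± 0.15, adjusted p = 0.175), Fcgrt (0.16 ± 0.11, adjusted p = 0.396) and Fcgr2b (-0.19 ± 0.18, adjusted p = 0.568) did not pass the test. Without lymph node replicate 3, which had the lowest Fcgr1, Fcgr2b and Fcgr3 of its group, Fcgr1 (0.50, adjusted p = 0.0331) and Fcgr3 (0.44, adjusted p = 0.0371) passed it. Of the 8 nonclassical monocyte genes, 3 were also higher in lymph node than in primary tumor TIMs, and their part in the Fcgr4 difference was not tested.

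The make-up of the Fcgamma receptor transcripts changed with these rises. A ratio of counts within a library does not depend on scaling, and it is given as a description without a test. Of the counts on the 4 Fcgr genes, Fcgr4 took 0.626% ± 0.0280 (SD, n = 3) in FVB BM IMs, 0.870% ± 0.124 (n = 3) in DBA2 BM IMs, 6.66% ± 1.02 (n = 5) in primary tumor TIMs, 9.14% ± 1.42 (n = 5) in lymph node TIMs and 2.84% ± 0.311 (n = 5) in LN4K1 lung TIMs. Fcgr1 took 1.75% ± 0.531, 5.50% ± 0.741, 14.6% ± 1.11, 16.1% ± 0.639 and 7.40% ± 0.472 in the same order. Fcgr3 remained the largest part in every group, with means between 52.9% and 66.9%, and Fcgr2b took between 19.0% and 30.7%. Counts of the 3 activating receptors over those of Fcgr2b were 2.26 ± 0.0620 in FVB BM IMs, 2.36 ± 0.0837 in DBA2 BM IMs, 2.89 ± 0.260 in primary tumor TIMs, 4.28 ± 0.195 in lymph node TIMs and 2.61 ± 0.267 in LN4K1 lung TIMs. The lymph node libraries, between 4.08 and 4.61, lay above every other library, primary tumor TIMs lay above both BM IM groups, and LN4K1 lung TIMs, between 2.31 and 2.99, overlapped both BM IM groups and primary tumor TIMs.

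The gap between lymph node and primary tumor TIMs in this ratio was present in each activating gene. Fcgr3 over Fcgr2b was between 2.84 and 3.10 in lymph node TIMs and between 1.83 and 2.59 in all other libraries, although neither gene passed the test between the 2 groups on its own. Fcgr1 over Fcgr2b was 0.849 ± 0.0338 in lymph node and 0.569 ± 0.0653 in primary tumor TIMs, and Fcgr4 over Fcgr2b was 0.484 ± 0.0934 and 0.260 ± 0.0492, without overlap in either case. Part of Fcgr3 and Fcgr2b reads come from sequence the genes share. Set against the gamma chain, counts of the 3 activating receptors were 0.382 ± 0.0164 of those of Fcer1g in FVB BM IMs and 0.375 ± 0.0195 in DBA2 BM IMs, and 1.02 ± 0.0737, 0.979 ± 0.140 and 0.800 ± 0.0808 in primary tumor, lymph node and LN4K1 lung TIMs, so that receptor counts rose above the BM IM range relative to the chain in all 3 TIM groups.

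**Figure D3:**
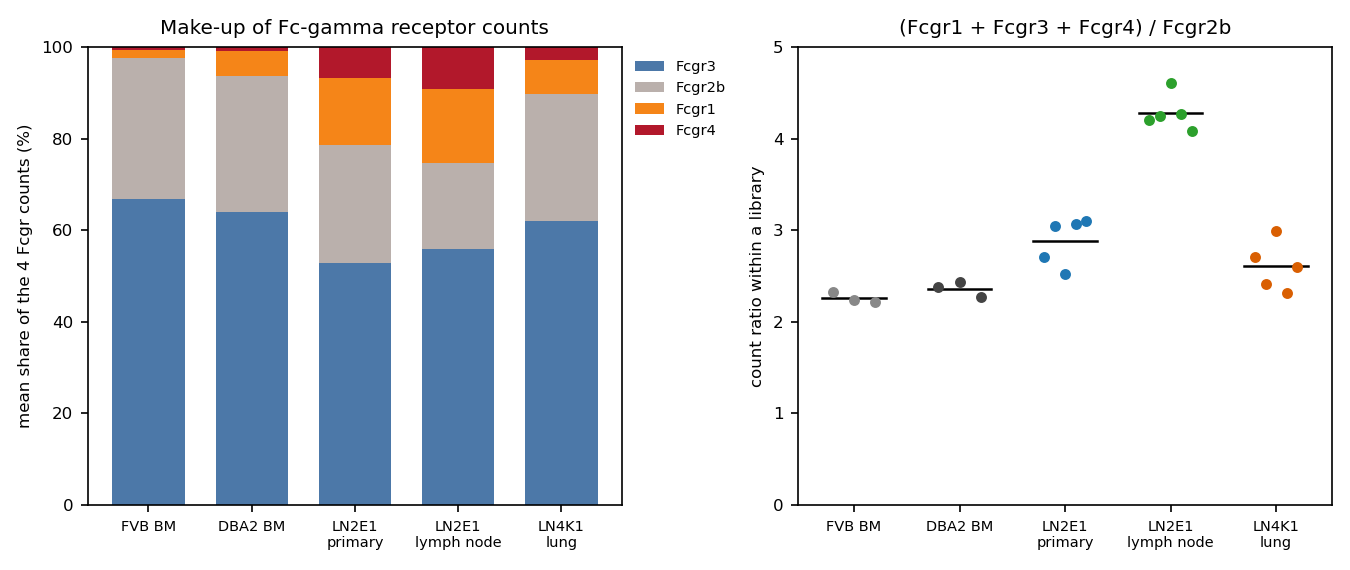
Left, mean share (%) of each gene in the summed counts of Fcgr1, Fcgr2b, Fcgr3 and Fcgr4 in the 5 groups. Right, ratio of Fcgr1, Fcgr3 and Fcgr4 counts together to Fcgr2b counts in each library (points) with the group mean (line), which lies between 4.08 and 4.61 in lymph node TIMs and at or below 3.10 elsewhere.

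Levels of different genes can be compared only per length. In CPM per kilobase of annotated exons, Fcer1g was first and Fcgr3 the next in every group, with either the union of all exons or the longest transcript as the length. Fcgr4 was last in both BM IM groups and in LN4K1 lung TIMs, and Fcgrt was last in both LN2E1 groups. In lymph node TIMs Fcgr4 and Fcgr1 ranked above Fcgr2b with either length, while in primary tumor TIMs Fcgr2b ranked below them with the exon union and above them with the longest transcript.

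Of the other genes on the stretch of chromosome 1 from Fcgr2b to Fcer1g, a set chosen after the values of the receptors were known, 6 were in the count table and 4 or 5 could be tested in a comparison. Sdhc, a subunit of succinate dehydrogenase that lies between Fcgr3 and Fcer1g, was called higher in primary tumors (0.50, adjusted p = 0.0259) and not in lymph nodes (0.28, adjusted p = 0.324) or LN4K1 lungs (0.032, adjusted p = 0.884). Tomm40l was not called in any of the 3, with values between -0.66 and -0.14. Besides Sdhc, Nr1i3 was called higher in LN4K1 lungs (7.85, adjusted p = 0.0164) and not in lymph nodes (2.55, adjusted p = 0.487). It was not tested in primary tumors. No other gene of the set was called, which left 1 of 4, 0 of 4 and 1 of 5 tested genes called in the 3 comparisons. Over all genes 61.9%, 37.4% and 24.9% were called.

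The genes around the receptors were described by lists written with earlier results of these data known. Among 19 genes of activating signaling downstream of the gamma chain, 12 rose and 2 fell in primary tumors, 11 rose and 1 fell in lymph nodes, and 6 rose and none fell in LN4K1 lungs, where higher calls made up 33.3%, 20.2% and 13.9% of all genes. The Src family kinases Lyn (1.12, 1.10 and 0.91) and Fgr (1.41, 1.58 and 0.80) and the adaptor Lcp2 (0.83, 0.84 and 0.76) were called higher in all 3, but Fgr in LN4K1 lungs not with total counts (0.59, adjusted p = 0.0797). The median of this list was 0.83, 0.84 and 0.15, and with total counts the last turned to -0.067. Among 8 genes of inhibitory signaling, 4, 4 and 1 rose and 1, 0 and 0 fell. Dok2, an adaptor that restrains kinase signaling, rose in all 3 (3.75 ± 0.19, 4.08 ± 0.33 and 2.16 ± 0.22). Inppl1, which encodes the phosphatase SHIP2, rose in primary tumors (1.69 ± 0.35, adjusted p = 0.00246) and in lymph nodes (1.56 ± 0.55, adjusted p = 0.0482, and 0.103 with total counts), and had a value of -0.88 ± 0.31 in LN4K1 lungs (adjusted p = 0.0705), where it was called lower with total counts (-1.10, adjusted p = 0.0309).

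Genes of the phagocytic machinery were called in both directions: of 15 genes of actin remodeling and the NADPH oxidase, 5 rose and 3 fell in primary tumors, 4 rose and 2 fell in lymph nodes, and 2 rose and 2 fell in LN4K1 lungs. Over all genes, 33.3% rose and 28.6% fell in primary tumors, 20.2% and 17.2% in lymph nodes, and 1892 rose and 1497 fell of 13624 in LN4K1 lungs. The list's medians of 0.22 and 0.15 in lymph nodes and LN4K1 lungs turned to -0.074 and -0.081 with total counts, which left 1 rising and 7 falling in primary tumors, 0 and 4 in lymph nodes and 0 and 2 in LN4K1 lungs. Within the oxidase, the membrane subunit Cybb was called higher in all 3 (0.34, 0.50 and 0.45), but in none with total counts (0.17, 0.22 and 0.23). Its cytosolic partner Ncf1 fell in all 3 (-0.84, -1.26 and -0.62), as did the GTPase Rac2 (-0.88, -0.72 and -0.33), also with total counts. Of 7 genes of the FcRn partner and endosomal recycling, 4, 4 and 3 rose and 1, 0 and 0 fell. B2m, which encodes the beta-2 microglobulin chain of FcRn and of MHC class I, rose in all 3 (0.74 ± 0.15, 1.15 ± 0.24 and 0.95 ± 0.22), also where Fcgrt fell. Rab5a, a GTPase of early endosomes, rose as well (0.57, 1.12 and 0.77).

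Genes known to respond to interferon gamma were the list that moved most: 12 of 12 rose in primary tumors, 11 in lymph nodes and 12 in LN4K1 lungs, with medians of 4.49, 4.77 and 2.89. Higher calls made up 33.3%, 20.2% and 13.9% of all genes there. The chemokine gene Cxcl9 rose by 7.37 ± 0.38, 7.29 ± 0.37 and 5.67 ± 0.53, the MHC class II regulator Ciita by 4.62 ± 0.40, 4.16 ± 0.38 and 3.72 ± 0.39, and Cd274, which encodes PD-L1, by 7.17 ± 0.28, 7.91 ± 0.34 and 3.68 ± 0.30. In the interaction test 10 of the 12 rose more in primary tumors than in LN4K1 lungs, the direction of Fcgr1 and Fcgr4, where 13.2% of all genes did. Ido1 was the gene not called in lymph nodes (1.43, adjusted p = 0.508). The receptors of other antibody classes and the Fc receptor-like genes were mostly low. Of 12, 11 could be tested in primary tumors (6 rose, 2 fell), 8 in lymph nodes (2 rose) and 9 in LN4K1 lungs (0 called by edgeR, 1 at an unadjusted p under 0.05 and 1 by DESeq2, in both cases Fcrlb). Fcrla, an intracellular Fc receptor-like gene, had a mean of 0.163 CPM in FVB BM IMs and was higher in primary tumor TIMs at 15.3 CPM (6.48 ± 0.59, adjusted p = 1.58e-05) and in lymph node TIMs at 32.5 CPM (7.61 ± 0.997, adjusted p = 0.000254). Pigr, the epithelial receptor for polymeric immunoglobulin, had 0 counts in every BM IM library, where a count of 0 allows up to 3 counts per library, and a mean of 2.94 CPM in primary tumor TIMs, the group with the highest epithelial genes.

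**Figure D4:**
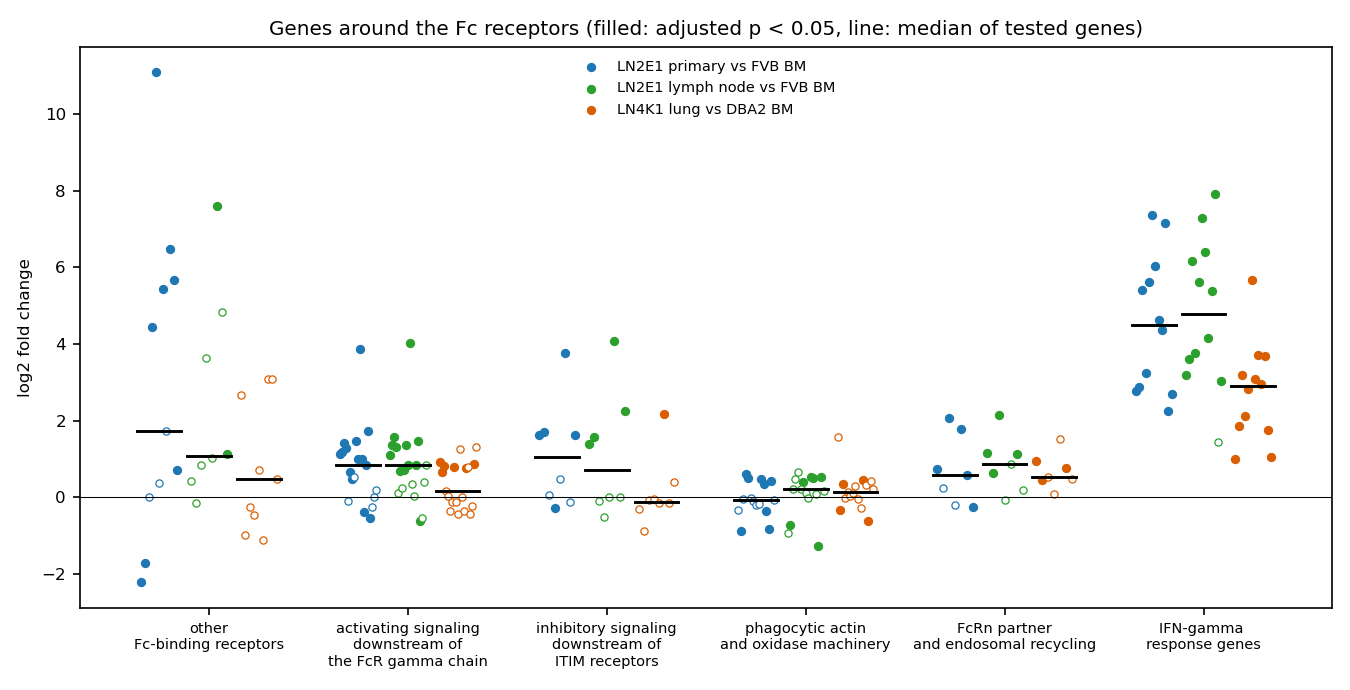
Log2 fold change (y axis) of each tested gene of 6 lists (x axis) in the 3 comparisons of TIMs with BM IMs, filled where the adjusted p was under 0.05, with the median of the tested genes as a line. The interferon gamma list has medians of 4.49, 4.77 and 2.89, and the highest point of the first list is Pigr, whose fitted value depends on the prior count because it had 0 counts in BM IMs.

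The genes whose log2 CPM ran most like that of each receptor over the 21 libraries were taken from 8015 genes with a mean log2 CPM above 3. The libraries come from 5 groups, so these correlations mostly follow the group means. For Fcgr1 the highest were the interferon-inducible GTPase genes Gbp2 (r = 0.988) and Tgtp1 (r = 0.986) and the chemokine gene Cxcl10 (r = 0.985), and the lowest was the protease inhibitor gene Serpinb1a (r = -0.961). For Fcgr4 they were AW112010 (r = 0.991), the uridine phosphorylase gene Upp1 (r = 0.990) and the cytokine signaling inhibitor gene Socs1 (r = 0.988), with the lamin B receptor gene Lbr lowest (r = -0.989). Fcgr3 ran with Casp6 (r = 0.978), Sirpb1a (r = 0.975) and Bst1 (r = 0.970), opposite to the replication gene Mcm2 (r = -0.971), and Fcgr2b with Wfdc17 (r = 0.971), Casp6 (r = 0.967) and Dpep2 (r = 0.965), opposite to Anp32e (r = -0.951). Casp6 was thus among the 3 nearest genes of both Fcgr3 and Fcgr2b. Fcer1g ran with Sri (r = 0.977), Dph3 (r = 0.974) and Chmp2a (r = 0.951), opposite to the importin gene Ipo5 (r = -0.908), and Fcgrt with Dynlt1a (r = 0.950), the sorting nexin gene Snx1 (r = 0.950) and the potassium channel subunit gene Kcne3 (r = 0.949), opposite to the flippase gene Atp11b (r = -0.958). Among the 6 themselves, Fcgr1 and Fcgr4 were closest (r = 0.971, rho = 0.944), followed by Fcgr2b and Fcgr3 (r = 0.957, rho = 0.857), and Fcgrt was the gene with values below 0 or near 0 against each of the others, between -0.466 and 0.0933.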

How the data were processed

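RNA of 21 samples of sorted IMs in 5 groups, assigned from the labels, was analysed. The authors amplified RNA with an ultra-low input kit without strand, trimmed adapters with BBDuk, aligned to mm10 with BBMap, used SAMtools 1.8 and counted reads per gene with featureCounts 1.5.2, and the deposited values are raw counts per gene symbol; counting settings and annotation version are not given in the sources used here. Totals were between 80772922 and 101043568. Counts were fitted with edgeR 4.0.16 in R 4.3.3 (limma 3.58.1 loaded with it): TMM factors, filterByExpr (minimum count 10, minimum total 15), the robust quasi-likelihood test (two-sided) on the libraries of each comparison, and Benjamini-Hochberg adjustment over all genes tested. The SE is the absolute log2 fold change over the square root of F and is approximate. log2 CPM used a prior count of 2. The script was tested on simulated data. Locations came from GENCODE vM21 (GRCm38). Alternatives were DESeq2 1.42.0, other scalings and filters, a fit of all groups, the replicate number as a block and leaving out each library.

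The members and lists were chosen with earlier results of these data known. Named genes were the 6 receptors, up to 3 genes per list and direction called with the same sign in all 3 comparisons, ranked by the smallest of the 3 changes (else the 2 with the largest change in primary tumors), and the 3 nearest and the lowest genes by correlation. Fcmr was matched as Faim3 and Adgre1 as Emr1. Trac, Ly6g and Siglecf were not analysed here. The single marker genes in the text other than those that lead their list, Ido1 and the neighbours on chromosome 1 were named after their values were seen, and total counts without TMM factors were added as an alternative then. No 2 replicates agreed within sampling noise.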

Additional observations from a re-analysis of the deposited data

Results flagged for a closer look

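In groups of 4 to 10 libraries a sample was noted where its gap to the next was too large a part of the range by Dixon's 95% criterion, which chance meets in about 1 in 20 groups. The third LN4K1 lung library was noted for Fcgr1 (260.4 CPM, the other 4 between 170.3 and 195 CPM) and for Fcer1g (3865 CPM, the others between 1973 and 2459 CPM). Without it the changes against DBA2 BM IMs were 2.24 (adjusted p = 9.95e-07) for Fcgr1 and 0.70 (adjusted p = 0.000324) for Fcer1g. This library also had the highest Fcgr2b (852 CPM) and Fcgr3 (2210 CPM) and the lowest Fcgrt (307 CPM) of its group. Over all genes, 5036 were called against DBA2 BM IMs without it, beside 3389 with it. The third primary tumor library was noted for Fcgr2b (842 CPM, the others between 525 and 616 CPM) and for Fcgr3 (1542 CPM, the others between 1182 and 1211 CPM). Without it the changes against FVB BM IMs were 1.07 (adjusted p = 4.22e-05) for Fcgr2b and 1.02 (adjusted p = 4.09e-05) for Fcgr3.

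The change in LN2E1 primary tumors differed from that in LN4K1 lungs for each receptor gene in the interaction test, where 26.5% of 15182 genes were called. The calls of Fcgr2b and Fcer1g held in only 6 and 10 of 16 fits without 1 library. Both were lost with the replicate block (adjusted p = 0.0625 and 0.0569). The difference in log2 fold change was 2.15 for Fcgr1 and 1.26 for Fcgr4, which rose more in the primary tumors. It was -1.45 for Fcgrt, which fell in the primary tumors and rose in the lungs, and -0.75 for Fcgr3, -0.75 for Fcer1g and -0.59 for Fcgr2b. Strain, cell line, route and number of cells injected cannot be told apart in these differences, while both sets of TIMs came from tumors in the lung.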

How the results depend on the processing

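Among the changes of the 6 genes, that of Fcer1g in primary tumors, which was not called, was the only one to change direction (-0.047 with total counts in place of TMM factors), and the medians of the activating signaling list in LN4K1 lungs and of the phagocytic list in lymph nodes and LN4K1 lungs also did under that scaling. At the study's thresholds edgeR left 3 of the 6 genes in primary tumors, 2 in lymph nodes, 1 in the interaction and 0 both between the LN2E1 TIM groups and between strains, while shrunken DESeq2 fold changes left 4 each in primary tumors, lymph nodes and LN4K1 lungs. Over all genes they left 1879, 758, 405, 4, 52 and 56 in primary tumors, lymph nodes, LN4K1 lungs, between LN2E1 groups, between strains and in the interaction, and shrunken DESeq2 fold changes left 4004, 2402, 1565, 177 and 717 in the first 5. For lymph node against primary tumor TIMs, 1 of the 6 was called with DESeq2's size factors, with total counts and with at least 10 counts in every library. Over all genes 1504, 1413 and 1215 were called there, beside 1578 in the main fit. In 1 fit over all 5 groups 1 of the 6 and 2197 of all genes were called, and with the replicate block 1 and 533. With shrunken DESeq2 fold changes at the study's thresholds 0 of the 6 were left. For the strains, 1 of the 6 was called in 1 fit over all groups and 0 with shrunken DESeq2. In that fit 1595 of all genes were called, beside 2719 in the main fit. Leaving out a library gave 5 to 5 genes in primary tumors, 5 to 6 in lymph nodes, 4 to 6 in LN4K1 lungs, 1 to 4 between lymph node and primary tumor TIMs, 0 to 4 between strains and 4 to 6 in the interaction. The extremes between strains were 0 without DBA2 replicate 2 and 4 without FVB replicate 3, and all genes called there were between 1115 (without FVB replicate 2) and 4828 (without FVB replicate 3) beside 2719. In LN4K1 lungs 2158 and 2134 genes were called without DBA2 replicates 2 and 3, and 5036 without LN4K1 lung replicate 3, beside 3389. Between LN2E1 groups 1036, 889 and 1023 were called without primary tumor replicates 2, 4 and 5, beside 1578.

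Whether replicate numbers pair the samples is not given in the labels, and the main tests treated the samples as unpaired. Correlations of same-numbered deviations lay between -0.297 and 0.297 in the 5 comparisons of 2 groups, and in none of them was each pair over 0.1. They cannot decide it, because the highest, 0.297, was between lymph node TIMs and BM IMs of naive FVB mice, which are different animals. With the replicate block 5954 genes in place of 9025 were called in primary tumors, 1324 in place of 3389 in LN4K1 lungs and 533 in place of 1578 between lymph node and primary tumor TIMs. Receptor calls lost with it were Fcer1g (adjusted p = 0.0940) and Fcgrt (0.157) in LN4K1 lungs, Fcer1g between lymph node and primary tumor TIMs (0.0956), Fcgr2b between strains (0.0578), and Fcgr2b (0.0625) and Fcer1g (0.0569) in the interaction. All genes called also moved with DESeq2's Wald test to 3078 between lymph node and primary tumor TIMs, and with 1 fit over all groups to 1595 between strains. Levels without TMM factors moved beyond the SD for Fcgr1 (43.9 CPM), Fcgr2b (237 CPM), Fcgr3 (509.6 CPM) and Fcer1g (1497 CPM) in DBA2 BM IMs and for Fcgr4 (6.07 CPM) in FVB BM IMs. The cause of these shifts was not tested. With 3 BM IM libraries per strain, no call between strains of Fcgr1, Fcgr2b or Fcgr3 held in all 6 fits without 1 library.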
